A study of Homo sapiens with 6 samples.

Results

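Metallothionein genes were followed in MDA-MB-231 xenografts, and the members were 6 named genes: MT2A, MT1X, MT1E, MT1F, MT1G and MT1M. They are 6 of 60671 annotated genes in the matrix, found by symbol and Ensembl identifier. MDA-MB-231 cells, a line from a human breast tumor without hormone receptors or HER2 amplification, were grown orthotopically in the mammary fat pads of young female NSG mice, which lack T, B and NK cells but keep their own stroma and vessels. RNA-seq was performed on 3 samples of the tumor core (TC) and 3 of the tumor margin (TM); both groups carry wild-type cells that had no treatment beyond the injection. The study calls the replicates mice and the labels do not say whether a core and a margin came from the same mouse, so p-values measure the spread between these samples. All 6 samples rest on 1 cell line, and in such bulk tissue fewer cells of a type and less RNA per cell cannot be told apart.

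Metallothioneins are small proteins made largely of cysteine, whose thiols bind zinc, copper and cadmium. They buffer free zinc and scavenge reactive oxygen species. Their genes stand in a cluster on chromosome 16 and are induced when zinc occupies the transcription factor MTF1, which then binds metal response elements in their promoters; glucocorticoids and hypoxia are also known inducers. MT2A and the MT1 genes can be made in most cell types, whereas MT3 is known from brain and MT4 from stratified epithelium.

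The coding sequences of the 4 members above 0 TPM are shown so that their likeness can be read beside the values below. They were read from GENCODE v29 transcripts (MT2A-201, MT1E-201, MT1X-201 and MT1F-201), 5′ to 3′ without the stop codon, and the capitals mark in-frame cysteine codons.
MT2A: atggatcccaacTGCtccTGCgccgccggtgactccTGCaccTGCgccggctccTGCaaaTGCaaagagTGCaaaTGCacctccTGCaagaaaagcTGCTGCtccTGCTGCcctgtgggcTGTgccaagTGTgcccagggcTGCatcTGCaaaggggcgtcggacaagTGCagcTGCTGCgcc
MT1E: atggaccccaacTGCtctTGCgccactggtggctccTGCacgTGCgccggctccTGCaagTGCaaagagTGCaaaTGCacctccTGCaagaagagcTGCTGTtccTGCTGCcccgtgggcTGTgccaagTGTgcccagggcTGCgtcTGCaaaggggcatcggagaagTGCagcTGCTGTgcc
MT1X: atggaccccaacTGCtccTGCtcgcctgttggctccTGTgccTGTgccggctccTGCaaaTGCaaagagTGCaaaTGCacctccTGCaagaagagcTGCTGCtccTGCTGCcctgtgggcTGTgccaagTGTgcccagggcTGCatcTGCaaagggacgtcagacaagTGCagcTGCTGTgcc
MT1F: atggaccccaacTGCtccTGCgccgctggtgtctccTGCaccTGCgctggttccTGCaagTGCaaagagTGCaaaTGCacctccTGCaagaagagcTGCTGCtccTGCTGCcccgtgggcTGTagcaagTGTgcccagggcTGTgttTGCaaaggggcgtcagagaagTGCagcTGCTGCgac
Each of the 4 has 61 codons, of which 20 encode cysteine (32.8%) and 0 encode phenylalanine, tyrosine or tryptophan. The cysteine codons fall at the same places in the 4 lines, as TGC in some and TGT in others. MT1G, with 62 codons, and MT1M, with 61, also have 20 cysteine codons. Identity over the aligned coding bases lay between 88.5% for MT1X with MT1F and 93.5% for MT2A with MT1G.

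Sharing was measured as stretches of transcript that occur whole in a transcript of another gene, be it a copy or a gene at the same place. In MT2A 4.88% of the 50-base windows of the transcript were also found whole in a transcript of another gene, and 0 of its 75-base windows were. For MT1E the shares were 5.34% and 0.794%, and for MT1F they were 3.59% and 0%. MT1X stood apart with 45.1% of its 50-base and 31.6% of its 75-base windows shared, and 19.1% of its 100-base windows were shared with AC026461.1 alone. That gene is a non-coding transcript that overlaps MT1X on the same strand, and it was listed at 0 TPM in all 6 samples. It is thus the same stretch of DNA and not a copy. The 50-base and 75-base shares of MT1X include it beside other metallothionein genes, and the part owed to copies was not counted. At 150 bases, the length of the study's reads, 5.65% of MT1X windows were shared, again with AC026461.1 alone, and 0 windows of the other 5 members were.

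The promoters of MT2A and MT1X are shown because the metal response element through which the family is known to be controlled can be read in them. Of the 6 members these 2 had an entry in the RefSeq promoter table, and none is shown for MT1E, MT1F, MT1G or MT1M. Each line runs from 250 bases before to 50 bases after the transcript start on the plus strand of GRCh38.p14. Capitals mark the core of the element, searched as TGCACNC or TGCGCNC on both strands. The MT2A window is chr16:56608334-56608633 and the MT1X window is chr16:56682220-56682519.
MT2A promoter: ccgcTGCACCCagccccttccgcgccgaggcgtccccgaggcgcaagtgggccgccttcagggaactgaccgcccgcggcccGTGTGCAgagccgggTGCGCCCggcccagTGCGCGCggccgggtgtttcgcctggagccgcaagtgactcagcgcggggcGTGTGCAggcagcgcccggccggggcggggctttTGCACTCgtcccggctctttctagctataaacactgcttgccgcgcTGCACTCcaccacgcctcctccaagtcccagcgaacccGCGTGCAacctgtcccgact
MT1X promoter: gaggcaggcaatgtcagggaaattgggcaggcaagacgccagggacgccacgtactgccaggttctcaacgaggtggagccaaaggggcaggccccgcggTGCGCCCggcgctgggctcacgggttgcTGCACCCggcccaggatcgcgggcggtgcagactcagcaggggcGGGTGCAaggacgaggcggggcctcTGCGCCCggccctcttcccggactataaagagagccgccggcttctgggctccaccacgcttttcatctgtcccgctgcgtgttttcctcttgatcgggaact
The MT2A window held 8 matches that did not overlap each other, the nearest beginning 8 bases before and 30 bases after the start, and 0.0199% of 35116 promoters of the same length held as many. In the MT1X window there were 4 matches, beginning 150, 122, 78 and 53 bases before the start, a number reached by 0.601% of promoters. At least 1 match was present in 29.6% of all promoters. A TATAAA sequence began 29 bases before the start of MT2A and 30 before that of MT1X, against 11.5% of all promoters with at least 1 such match on either strand. The promoter of MT1H, a relative listed at 0 TPM in every sample, also held 8 matches of the element.

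The samples were checked against markers of the cell line before the members were compared. VIM lay between 3797 and 5283 TPM and KRT18 between 387 and 575, while the hormone receptors ESR1 and PGR did not exceed 0.13 and 0.22 TPM. EPCAM was at 3.66 to 6.02 TPM, and CDH1 did not exceed 0.36. TM replicate 3 stood apart, with 21.1 TPM over the loci outside the annotation against 1574 to 2643 in the other 5 samples, so the results below are also given without it where it mattered. The number of annotated genes above 0 TPM lay between 21063 and 23216.

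MT2A carried most of the metallothionein RNA in both zones. Of the 6 members 4 were above 0 TPM, and all 4 passed the filter on low values and were tested. MT1G (chr16:56666731-56668065, minus strand) and MT1M (chr16:56632233-56633986) were listed at 0 in all 6 samples, so no difference was given for them. A listed 0 can be a failed estimate as well as absence, and with TPM alone the depth behind it is unknown.

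MT2A (ENSG00000125148; chr16:56608199-56609497 in GENCODE v29), the main metallothionein of most tissues, had levels of 5931 TPM in TC replicate 1, 5639 in TC replicate 2 and 8904 in TC replicate 3, against 6623, 7915 and 5583 TPM in the TM samples in the same order. The highest value was that of TC replicate 3, the next that of TM replicate 2, and the groups overlapped. By level MT2A ranked between 6 and 20 among all annotated genes of a sample, with rank 6 in TC replicate 3 and rank 8 in TM replicate 2. The TC mean of 6825 ± 1807 TPM stood beside a TM mean of 6707 ± 1168 TPM (SD, n = 3), a ratio of 1.02. As log2(TPM + 1), TC minus TM, the difference was 0.0083 (SE 0.22, 95% interval -0.49 to 0.51, limma adjusted p = 0.991), and it turned negative after quantile normalization (-0.056) and after removal of mitochondrially encoded genes (-0.045). Without TM replicate 3 it was -0.12 and without TC replicate 3 it was -0.20.

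MT1E (ENSG00000169715; chr16:56625475-56627112) ranked next. In TC its levels were 593, 633 and 928 TPM, against 654, 594 and 557 TPM in TM. TC replicate 3 was again the highest sample, and without it the remaining TC values lay inside the TM range. The TC mean was 718 ± 183 TPM and the TM mean 601 ± 48.9 TPM (SD, n = 3). With all samples the log2 difference was 0.23 (SE 0.18, 95% interval -0.19 to 0.64, limma adjusted p = 0.604), without TC replicate 3 it was 0.029, and without TM replicate 3 it was 0.18.

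MT1X (ENSG00000187193; chr16:56682424-56684196) had the smallest p of the 4 tested members. Core samples stood at 535.23, 590.3 and 605 TPM, margin samples at 397, 469 and 536.45 TPM. Only TM replicate 3 reached the TC range, and it did so by little more than 1 TPM above TC replicate 1. The TC mean of 577 ± 36.8 TPM was 1.23 times the TM mean of 468 ± 69.6 TPM (SD, n = 3). The log2 difference was 0.31 (SE 0.14, 95% interval -0.0099 to 0.63, limma unadjusted p = 0.0559, adjusted p = 0.326), so MT1X was not called. Without TM replicate 3 it was 0.42 (limma unadjusted p = 0.0113, adjusted p = 0.148). Without TM replicate 1 it was 0.20 (limma unadjusted p = 0.216, adjusted p = 0.669), and over all alternatives the adjusted p lay between 0.148 and 0.669.

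MT1F (ENSG00000198417; chr16:56657694-56660698) was expressed at a far lower level. The TC samples gave 8.37, 7.26 and 12.75 TPM and the TM samples gave 7.94, 6.14 and 11.16 TPM. Replicate 3 was the highest sample of each zone, and the groups overlapped. Mean levels were 9.46 ± 2.90 TPM for TC and 8.41 ± 2.54 TPM for TM (SD, n = 3). The log2 difference was 0.15 (SE 0.28, 95% interval -0.49 to 0.80, limma adjusted p = 0.846). Without TC replicate 3 it was -0.063 and without TM replicate 2 it was -0.030, and it rose to 0.35 without TM replicate 3, so its direction rested on single samples.

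**Figure D1:**
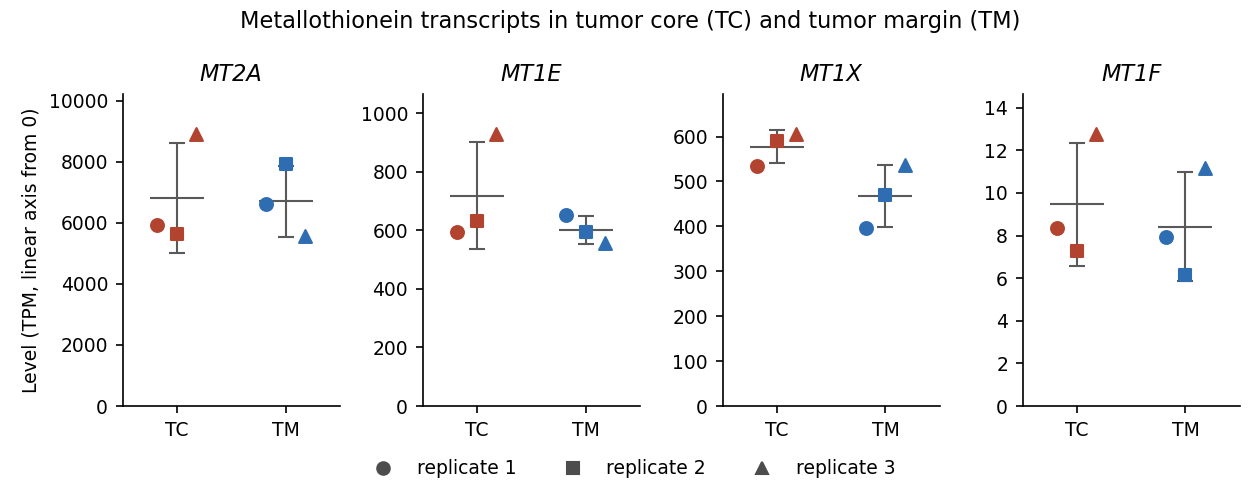
Levels (TPM, linear axes from 0) of the 4 detected members in 3 tumor core (TC) and 3 tumor margin (TM) samples; each point is a sample, horizontal bars are means and whiskers are SD (n = 3). The zones overlap in each panel, TC replicate 3 is the highest sample for MT2A, MT1E, MT1X and MT1F, and only MT1X has a single TM sample reaching the TC values.

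Of the 4 tested members 0 were called at an adjusted p under 0.05 by limma, and 0 had an unadjusted p under 0.05. Over all 13861 tested genes 0.137% were called, 0.00721% as higher in TC. An unadjusted p under 0.05 was found for 16.2% of genes, higher in TC for 1.93%. For 22.2% of genes the values of the zones were fully apart, higher in TC for 3.28% and lower for 18.9%, which held for 0 of the 4 members. The split by direction depended on the scaling: 268 genes were higher and 1972 lower in TC at an unadjusted p under 0.05 with TPM as deposited, 946 and 920 after median-of-ratios rescaling, and 737 and 1124 after quantile normalization. Among called genes 1 was higher and 18 lower in TC, against 11 and 5 without TC replicate 2. All 4 differences were above 0, with a median of 0.19, whereas the median of all tested genes was -0.14 and 33.0% of them were above 0. A general scaling shift enters these differences: median-of-ratios rescaling raised the median of all genes by 0.19 and quantile normalization raised it by 0.15. Relative to the median of all genes, MT1X stood at 0.45 with TPM as deposited and 0.47 after median-of-ratios rescaling, and MT2A at 0.14 and 0.17. MT1X, MT1E and MT1F stayed above the all-gene median under each of 18 alternatives, and MT2A did so under 16. The replicate block and the 2 forms of moderation cannot alter a difference, so those alternatives could not have moved a member. The 2 other filters and the inclusion of unannotated loci leave a member's difference unchanged and move only the median. Without TC replicate 3 the distance to the median was only 0.023 for MT1F and 0.12 for MT1E, and -0.11 for MT2A.

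The members did not vary as 1 unit across samples. In TC the highest sample was replicate 3 for each of the 4, but in TM the highest was replicate 2 for MT2A, replicate 1 for MT1E and replicate 3 for MT1X and MT1F. The highest sample exceeded the lowest by 1.59 times for MT2A, 1.67 for MT1E, 1.52 for MT1X and 2.08 for MT1F.

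Summed over the members, metallothionein RNA made 0.707%, 0.687% and 1.04% of all TPM for the TC samples, against 0.768%, 0.898% and 0.673% for the TM samples. The summed level was 8129 ± 2012 TPM for TC and 7784 ± 1152 TPM for TM (SD, n = 3), a difference of 344 TPM that is smaller than either SD and that became -816 TPM without TC replicate 3 and -204 without TM replicate 3. MT2A made 82.1% to 88.1% of the sum, MT1E 6.61% to 9.21%, MT1X 5.17% to 8.59% and MT1F 0.0683% to 0.167%. The order of the levels in TPM, a unit per length, was therefore MT2A, MT1E, MT1X and MT1F. MT2A exceeded MT1E by 8.91 to 13.3 times within a sample, and MT1X exceeded MT1F by 47.5 to 81.3 times. MT1E and MT1X stand next to each other in this order of levels and their ranges overlap, although MT1E was the higher one in 6 of 6 samples.

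Ratios within a sample do not depend on scaling between samples, so each minor member was set against MT2A. The level of MT1E was 9.99%, 11.2% and 10.4% of that of MT2A in the TC replicates and 9.87%, 7.5% and 9.97% in the TM replicates. These percentages did not overlap, but TM replicates 1 and 3 lay just below TC replicate 1 and the gap rested on TM replicate 2. As a log2 ratio the difference was 0.22 (exact permutation test, two-sided p = 0.1, adjusted over 3 ratios p = 0.3), with 0.1 as the smallest p that 3 samples against 3 allow, and it fell to 0.086 without TM replicate 2. MT1X was at 9.02%, 10.5% and 6.80% of MT2A in TC and at 6.0%, 5.92% and 9.61% in TM. The zones overlapped here, since TC replicate 3 and TM replicate 3 crossed over, and the log2 ratio differed by 0.30 (exact permutation p = 0.3, adjusted p = 0.45). Leaving out 1 sample moved that difference between 0.16 without TC replicate 2 and 0.53 without TM replicate 3, with 0.18 without TM replicate 2, 0.19 without TM replicate 1 and 0.48 without TC replicate 3. For MT1F the difference was 0.14 (exact permutation p = 0.7, adjusted p = 0.7).

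Beyond the members, the annotation placed 16 metallothionein genes and pseudogenes on chromosome 16, and 15 relatives of the 6 members were sought in the matrix. Listed at 0 in all samples were 13 of the 15, among them MT1A, MT1B, MT1H, MT3 and MT4. MT1JP, a transcribed pseudogene between MT1M and MT1A, gave 3.56, 0.70 and 3.60 TPM for the TC samples and 2.94, 4.36 and 3.25 TPM for the TM samples, with TC replicate 2 far below the rest. Its log2 difference of -0.44 (SE 0.40, limma adjusted p = 0.654) became 0.033 without that sample. MT1DP, another pseudogene, was at 5.39 TPM in TM replicate 1 and listed at 0 in the other 5 samples. The expressed genes thus alternate with genes listed at 0 along the cluster, as the map of mean levels by distance from MT2A shows.

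**Figure D2:**
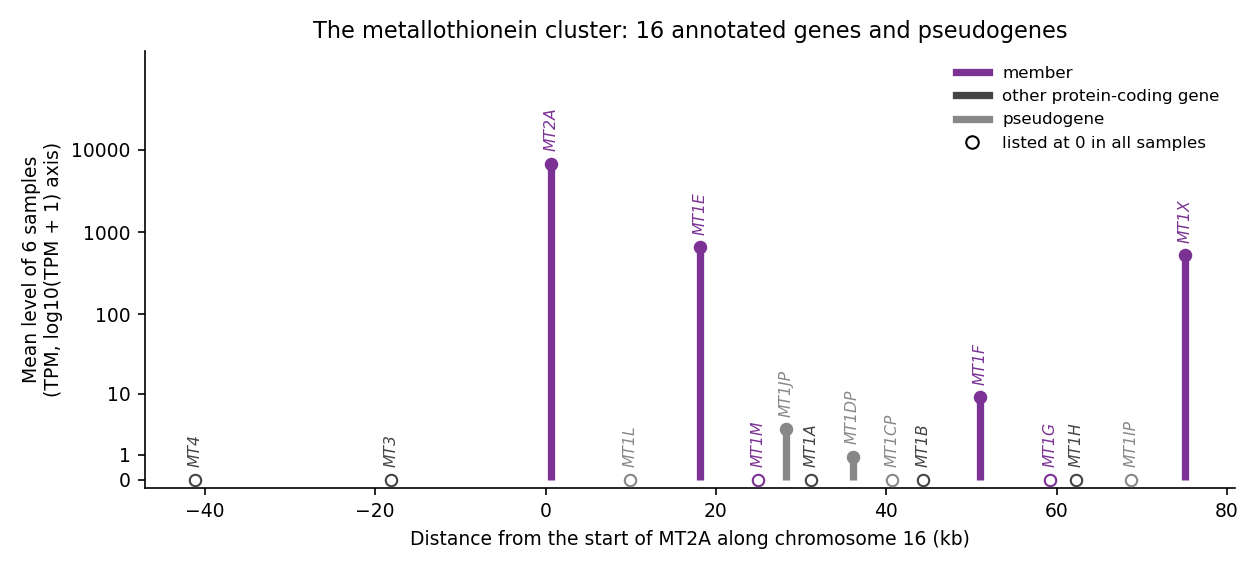
Mean level over 6 samples (vertical axis, TPM on a log10(TPM + 1) scale) of the 16 metallothionein genes and pseudogenes on chromosome 16 against distance from the start of MT2A in kb (horizontal axis, GENCODE v29). Filled points are above 0 TPM and open points are listed at 0 in all samples; MT2A, MT1E and MT1X tower over MT1F, MT1JP and MT1DP, and MT1M and MT1G are open.

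Transcription factors known to act on metallothionein genes were examined next. Of 8 factors 8 were tested, 0 were called in either direction (0.137% of all genes were), and 1 had an unadjusted p under 0.05 (16.2% of all genes did). MTF1, the zinc sensor that drives the family, had core levels of 3.99, 2.58 and 2.10 TPM and margin levels of 5.26, 3.12 and 3.43 TPM. The zones overlapped, and its log2 difference was -0.35 (SE 0.28, 95% interval -0.99 to 0.30, limma adjusted p = 0.611). It ranged from -0.54 without TC replicate 1 to -0.16 without TM replicate 1, and was -0.20 without TC replicate 3. USF1, an E-box binding factor, was the 1 with an unadjusted p under 0.05, with core levels of 32.7, 27.0 and 31.3 TPM and margin levels of 34.1, 46.7 and 43.0 TPM. Its zones did not overlap, as for 18.9% of all tested genes in that direction. The log2 difference was -0.43 (SE 0.17, limma unadjusted p = 0.0330, adjusted p = 0.261). Rescaling by median-of-ratios brought it to -0.22 (limma unadjusted p = 0.283) and after quantile normalization -0.26 (limma unadjusted p = 0.179). The median difference of the 8 factors was -0.23, beside -0.14 for all tested genes.

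Zinc transporters hold the other side of zinc balance, since SLC30 proteins move zinc out of the cytosol and SLC39 proteins move it in. SLC30A1, the zinc exporter of the cell surface and itself a known MTF1 target, had core levels of 6.62, 6.17 and 6.30 TPM and margin levels of 6.38, 5.06 and 4.52 TPM. Only TM replicate 1 lay within the TC range, and the log2 difference was 0.23 (SE 0.21, 95% interval -0.25 to 0.71, limma adjusted p = 0.657). It changed to 0.14 with TM replicate 3 left out and to 0.35 with TM replicate 1 left out, and was 0.10 after removal of length and GC trends, 0.41 after median-of-ratios rescaling and 0.42 after quantile normalization. Of 10 SLC30 genes 6 were tested, with 0 called, 0 at an unadjusted p under 0.05 and a median difference of 0.10. The shares over all tested genes were 0.137% called and 16.2% at an unadjusted p under 0.05. Among 14 SLC39 genes 11 were tested and 0 were called, with a median of -0.080.

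In the SLC39 group 2 genes had an unadjusted p under 0.05, both with lower values in TC, a direction shared by 14.2% of all genes at that threshold. SLC39A3 had core levels of 28.9, 36.8 and 34.3 TPM and margin levels of 46.4, 46.2 and 40.7 TPM, without overlap (log2 difference -0.41, SE 0.15, limma adjusted p = 0.230). SLC39A14, an importer of zinc and non-transferrin iron, had core levels of 17.1, 17.99 and 18.7 TPM and margin levels of 27.7, 24.7 and 20.9 TPM, also without overlap (log2 difference -0.42, SE 0.16, limma adjusted p = 0.264). Both differences shrank with rescaling: after median-of-ratios SLC39A3 was at -0.20 (limma unadjusted p = 0.262) and SLC39A14 at -0.22 (limma unadjusted p = 0.218), and after quantile normalization at -0.26 and -0.24 (limma unadjusted p = 0.119 and 0.160). SLC39A4 was the remaining SLC39 gene without overlap, named after its values were seen, with a log2 difference of -0.17. These 3 of 11 tested SLC39 genes stand beside 18.9% of all tested genes without overlap and lower in TC.

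**Figure D3:**
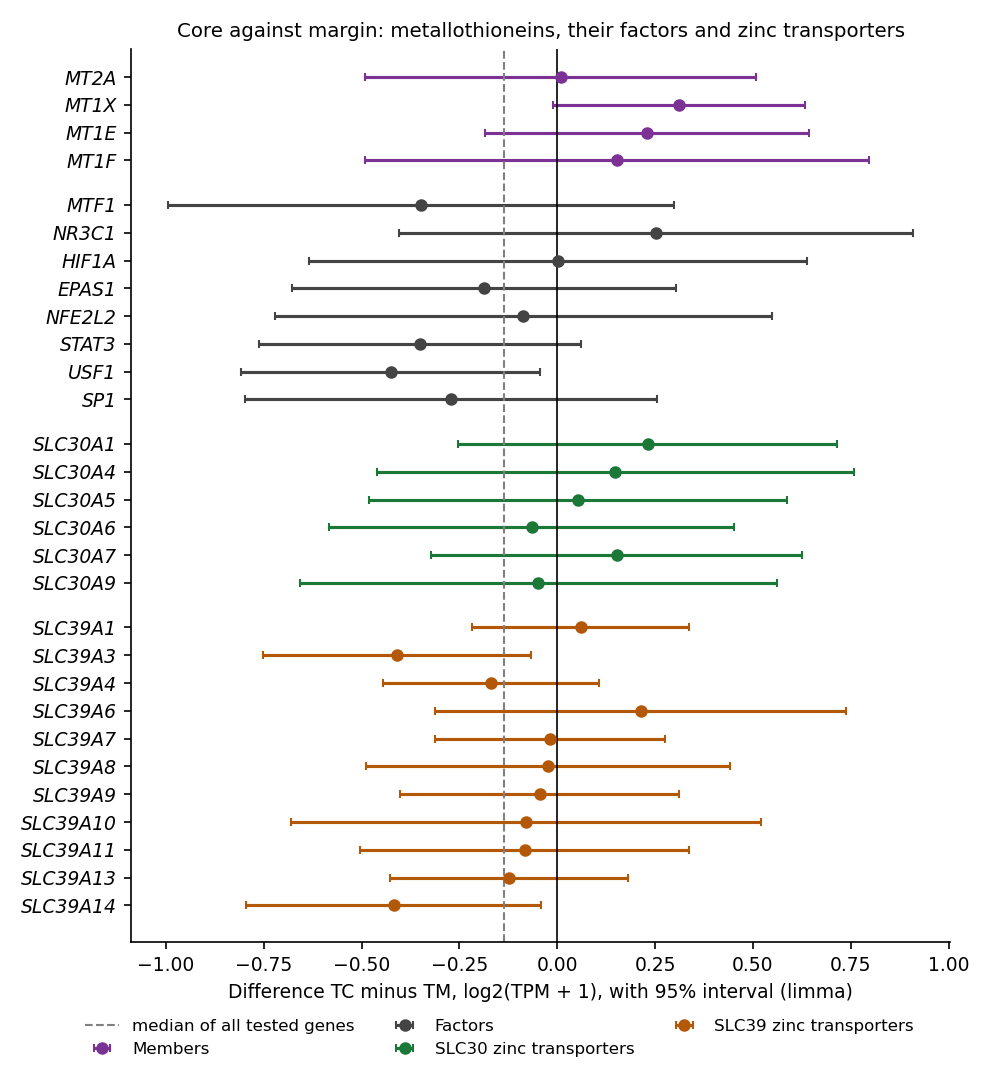
Core minus margin difference in log2(TPM + 1) (horizontal axis) with 95% intervals from limma (n = 3 per zone) for the 4 tested members, 8 transcription factors, 6 SLC30 and 11 SLC39 zinc transporters. The solid line is 0 and the dashed line the median of all tested genes (-0.14); the intervals of the 4 members cross 0, and those of USF1, SLC39A3 and SLC39A14 lie below it before adjustment and with TPM as deposited.

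Copper is the other metal that metallothioneins hold. Of 14 copper transport and chaperone genes 14 were tested, 0 were called (0.137% of all genes were), and 1 had an unadjusted p under 0.05 (16.2% of all genes did). That was MT-CO2, the copper-binding subunit of cytochrome c oxidase, which shares no descent with the metallothioneins despite its symbol. Its core levels were 11731, 7259 and 8731 TPM and its margin levels 11855, 13594 and 14017 TPM (log2 difference -0.53, SE 0.20, limma adjusted p = 0.248). Rescaling by median-of-ratios gave -0.32 (limma unadjusted p = 0.224), and without TC replicate 2 it was -0.37 (limma unadjusted p = 0.123). Mitochondrially encoded genes as a whole made 6.08% to 8.82% of TPM in TC and 9.23% to 11.1% in TM. The median difference of the copper list was -0.17.

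Genes that share inducers with the metallothioneins gave no call either. Of all tested genes 0.137% were called and 16.2% had an unadjusted p under 0.05, so a count of 0 says little for lists this short. Of 10 glucocorticoid receptor targets 9 were tested, with 0 called, 0 at an unadjusted p under 0.05 and a median of 0.14. ZBTB16, the untested target, named after its values were seen, had 0.26, 0.17 and 0.16 TPM in the core and 1.37, 2.67 and 0.47 in the margin. These low values did not overlap, as for 18.9% of tested genes in that direction. Without a filter its log2 difference was -0.97 (limma unadjusted p = 0.0275, adjusted p = 0.362). Of 10 metal and oxidative stress genes, such as HMOX1 and GCLM, 10 were tested, again with 0 called and 0 at an unadjusted p under 0.05, and the median was -0.046. CEBPD, a glucocorticoid-induced factor named after its values were seen, had core levels of 62.2, 12.1 and 105.0 TPM and margin levels of 23.0, 111.0 and 5.33 TPM. Its 2 highest samples were TM replicate 2 and TC replicate 3, as for MT2A, which held for 2 of the 10 targets, CEBPD and the clock gene PER1. The share of all genes with these 2 samples highest was not counted. Across all tested genes the deviations of the same 2 samples from their zone means correlated at 0.32.

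Markers of cell types that a mouse host could add also differed between samples, and their part in the metallothionein values was not tested. The summed TPM of 8 fibroblast markers came to 65.4, 122.8 and 227 for the TC samples and to 479.9, 1019.9 and 87.3 for the TM samples, each in replicate order, and most of it was COL1A1 and COL1A2, named after their values were seen. Of 4 fibroblast markers tested 1 had an unadjusted p under 0.05 (16.2% of all genes did). It was the collagen gene COL3A1, at a log2 difference of -2.13 (SE 0.87, limma unadjusted p = 0.0397, adjusted p = 0.281). Within each zone the sample with the highest sum, TC replicate 3 and TM replicate 2, was also the highest for MT2A. The sum does not stand for each marker, and the following were named after their values were seen. DCN and LUM were listed at 0 in these samples, and PDGFRA did not exceed 0.30 TPM. LUM and PDGFRA had higher means in TC (0.22 against 0.06 and 0.20 against 0.15 TPM), and the other fibroblast markers had lower ones. Summed skeletal muscle markers, 8 genes, were at 3.43 to 4.99 TPM in TC and at 120.2, 332 and 1.06 TPM in TM. Macrophage markers, 8 genes, summed to 95.7 to 109 TPM in TC and 102 to 109 in TM, with C1QA and C1QB at 0 throughout. Most of that sum was CD68, and CSF1R, named after its values were seen, was at 1.99, 2.32 and 3.0 TPM in the core and 4.07, 9.12 and 3.10 TPM in the margin, without overlap (log2 difference -0.80, SE 0.35, limma adjusted p = 0.314). Of all tested genes 18.9% were without overlap and lower in TC. Endothelial (6 genes) and adipocyte (5 genes) markers summed to at most 6.78 and 0.86 TPM in any sample, with EMCN, ADIPOQ and LEP at 0 throughout.

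**Figure D4:**
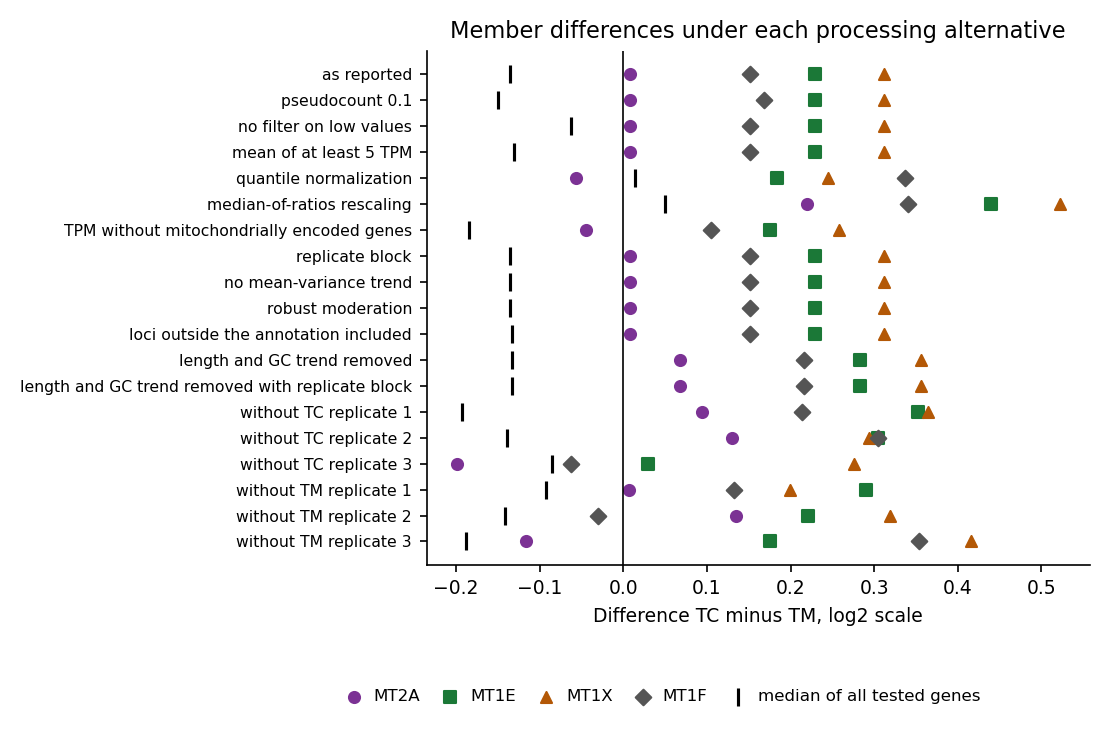
Differences TC minus TM (horizontal axis, log2 scale) of MT2A, MT1E, MT1X and MT1F and of the median of all tested genes under the reported processing and 18 alternatives (rows). MT1X and MT1E stay above 0 in each row, between 0.20 and 0.52 and between 0.029 and 0.44, whereas MT2A moves from -0.20 to 0.22 and MT1F from -0.063 to 0.35.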

How the data were processed

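RNA-seq of 3 tumor core and 3 tumor margin samples was analysed from a gene matrix. Per the file headers and the study's methods, the authors trimmed paired reads with SeqPrep and Sickle, aligned them with HISAT2, assembled them with StringTie, quantified genes with RSEM, and deposited TPM, a unit that divides by transcript length and scales samples to 1000000 (994381 in TM replicate 3). The submitters' processing notes name hg38. The annotation release and any step that parts mouse from human reads are not given in the sources used here. TPM keeps no depth, so precision was judged from the spread between samples, and the count model used in the study could not be run.

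A pseudocount of 1 was added before the log2, and a gene entered the fit when 3 or more samples held at least 1 TPM. These genes were fitted by limma 3.58.1 in R 4.3.3 (mean-variance trend, two-sided, Benjamini-Hochberg over 13861 genes). Calls were made at an adjusted p under 0.05. Ratios between members were compared by an exact permutation test over samples (scipy 1.17.1). Gene positions, coding sequences and transcript lengths came from GENCODE v29 on GRCh38, the assembly that hg38 names, and promoters from RefSeq on GRCh38.p14. The fit was tested on simulated data with an equal spread for all genes and changes far larger than those of the members. That test therefore does not speak to small differences. The members and gene lists were chosen with earlier results of these data known. The text names the 6 members, related genes above 0 TPM, MTF1, SLC30A1, list genes with an unadjusted p under 0.05, and the 5 genes whose levels followed the summed members most closely; other genes are marked. Alternatives were another pseudocount, 2 other filters, 3 scalings, the replicate number as a block, 2 forms of moderation, inclusion of unannotated loci, removal of length and GC trends with and without that block, and leaving out each sample. One list of host markers is not reported here.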

Additional observations from a re-analysis of the deposited data

How the results depend on the processing

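The count of members called was 0 under each of the 18 alternatives, while the count of members at an unadjusted p under 0.05 (limma) rose from 0 to 1, MT1X, after median-of-ratios rescaling, after removal of length and GC trends, and after that removal with the replicate block; it ranged from 0 to 1 when 1 sample was left out, with MT1X passing without TM replicate 3. MT1X and MT1E kept their direction throughout, although many of these alternatives cannot alter a member's difference. That holds for the replicate block, the 2 forms of moderation, the 2 other filters and the inclusion of unannotated loci. The block likewise adds nothing to the difference after removal of length and GC trends. MT2A turned to -0.056 after quantile normalization and -0.045 without mitochondrially encoded genes, and ranged from -0.20 to 0.14 when 1 sample was left out, negative without TC replicate 3 or TM replicate 3. Over the same fits MT1F ranged from -0.063 to 0.35, MT1JP from -0.69 to 0.033, and the log2 ratio of MT1F to MT2A from -0.17 (without TM replicate 2) to 0.47. The difference in summed TPM, 344 as reported, was 1639 after median-of-ratios rescaling and ranged from -816 to 974 when 1 sample was left out, beside a pooled replicate SD of 1639.5. Over all genes 19 were called, against 7 with a pseudocount of 0.1, 1 without a filter, 4 after quantile normalization, 6 after median-of-ratios rescaling, 12 without a trend, 47 with robust moderation, 8 after length and GC removal, and 1 to 17 when 1 sample was left out (1 without TC replicate 3 or TM replicate 1); the causes were not tested. Whether equal replicate numbers share a mouse stayed undecided. Deviations from the zone means correlated across genes at 0.21, -0.12 and -0.16 for numbers 1, 2 and 3. The highest value, 0.32, was that of TC replicate 3 with TM replicate 2. Deviations from a mean of so few samples constrain each other, so these values cannot decide the pairing. With the replicate block 1 gene was called, also after length and GC removal, and no call of a member changed. TPM gives no depth, so a listed 0 could not be bounded.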

Other observations

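The genes whose levels followed the summed metallothionein level most closely over the 6 samples were TIMM23B, DUSP14, IFI27, CCDC57 and BMS1P10, with Pearson correlations of 0.998, 0.987, 0.977, 0.975 and 0.973 on the log2 scale. They were picked as the highest among 13857 genes, of which 78 (0.563%) exceeded 0.9, and the points share the libraries, so the correlations are descriptions only. IFI27, an interferon-induced gene, had core levels of 592, 494 and 1170.5 TPM and margin levels of 553, 878 and 488 TPM. Its highest samples were TC replicate 3 and TM replicate 2, those of the summed level that it was picked to follow. DUSP14, a phosphatase that acts on MAP kinases, lay between 62.2 and 85.9 TPM with the same 2 samples on top. BMS1P10, a pseudogene, was low in most samples, with 7.01 TPM in TC replicate 3 and at most 1.66 elsewhere. The log2 differences of the 5 between TC and TM lay between 0.015 for DUSP14 and 0.33 for BMS1P10, with limma adjusted p-values between 0.790 and 0.980.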
